A study of Homo sapiens with 12 samples.

Results

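The 33 genes described here belong to the ATF4 stress response and to the serine and folate one-carbon pathways. They were found by gene name among the 26318 genes of the deposited count table: 13 are stress factors and signalling genes, and 20 are metabolic enzymes. The study sequenced poly(A) RNA of TMD8 cells in 6 libraries with an IRF4 shRNA and 6 libraries with a scramble shRNA, called control here. TMD8, a human line of diffuse large B cell lymphoma, has the activated B cell subtype, and a short hairpin RNA (shRNA) lowers the messenger RNA of its target, here the lymphoid transcription factor IRF4. One label field numbers the cell line upward from TMD8 with each sample while every title reads TMD8, and all were taken as TMD8. Every cell pellet was taken at 24 h, and the sources used here do not give how many hairpin sequences were used. Both groups are thus 1 cell line at 1 time, and no label tells whether each library had its own culture, so a p-value reflects the spread between these libraries, which may be technical.

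ATF4 is a transcription factor whose messenger RNA is translated when the initiation factor eIF2 alpha is phosphorylated, as happens when amino acids are short, unfolded protein builds up in the endoplasmic reticulum or heme is lacking. Together with partners of the CEBP and ATF families it binds the promoters of amino acid transporters, aminoacyl-tRNA synthetases and amino acid synthesis enzymes. The serine pathway draws on glycolysis to make serine, and the folate enzymes pass its side-chain carbon through mitochondria and cytosol to purines, thymidylate and methionine. In dividing lymphoid cells these one-carbon units serve nucleotide synthesis.

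Levels are given as CPM (a share of all counts, scaled to 1e6) on library sizes scaled by the trimmed mean of M-values (TMM), and differences as log2 fold changes of IRF4 shRNA over control. A gene was called changed at a Benjamini-Hochberg adjusted p under 0.05 in edgeR's quasi-likelihood test, adjusted over all 16437 genes tested. Each library held at least 31292641 counts and at most 38180370. IRF4 itself averaged 610.5 ± 101 CPM in IRF4 shRNA libraries and 1480.0 ± 55.9 CPM in control libraries (SD, n = 6 each), which is 41.2% of control (log2 fold change -1.28, SE 0.088, edgeR adjusted p = 1.41e-08), and exact permutation of the groups (two-sided) gave p = 0.00216, which no 6 against 6 can go below. The B cell markers MS4A1, CD79A, CD79B and PAX5 were present at 540.1 CPM or more in each library, and 3 of these 4 were higher with IRF4 shRNA, among them CD79A at 0.77 log2, while CD79B was not called. Of the markers of other cell types, CD3E, CD14, LYZ and EPCAM were each too low to be tested, with at most 44 counts over the 6 libraries of a group. In bulk RNA, fewer cells of a kind and less RNA per cell cannot be told apart.

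Of the 33 genes, 29 passed the filter on low counts and were tested. With IRF4 shRNA 19 of them fell, 2 rose and 8 were not called, beside 23.9% lower and 24.2% higher among all genes tested. With library sizes unscaled, 17 of the 29 genes fell and 4 rose, while 2968 of all genes fell and 5257 rose, against 3935 and 3983 with TMM scaling. The median log2 fold change of the 29 genes was -0.33, against -0.0056 over all genes. In 15 genes all 6 IRF4 shRNA libraries lay below all 6 control libraries, and in 1 gene, MTHFD1, all lay above. Over all genes tested such separation was found in 14.7% on the lower side and 16.2% on the higher side. A fall of at least 2-fold was seen in 5 of the 29 genes, ALDH1L2, ATF5, CTH, TRIB3 and AHCY, beside 2.74% of all genes.

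**Figure D1:**
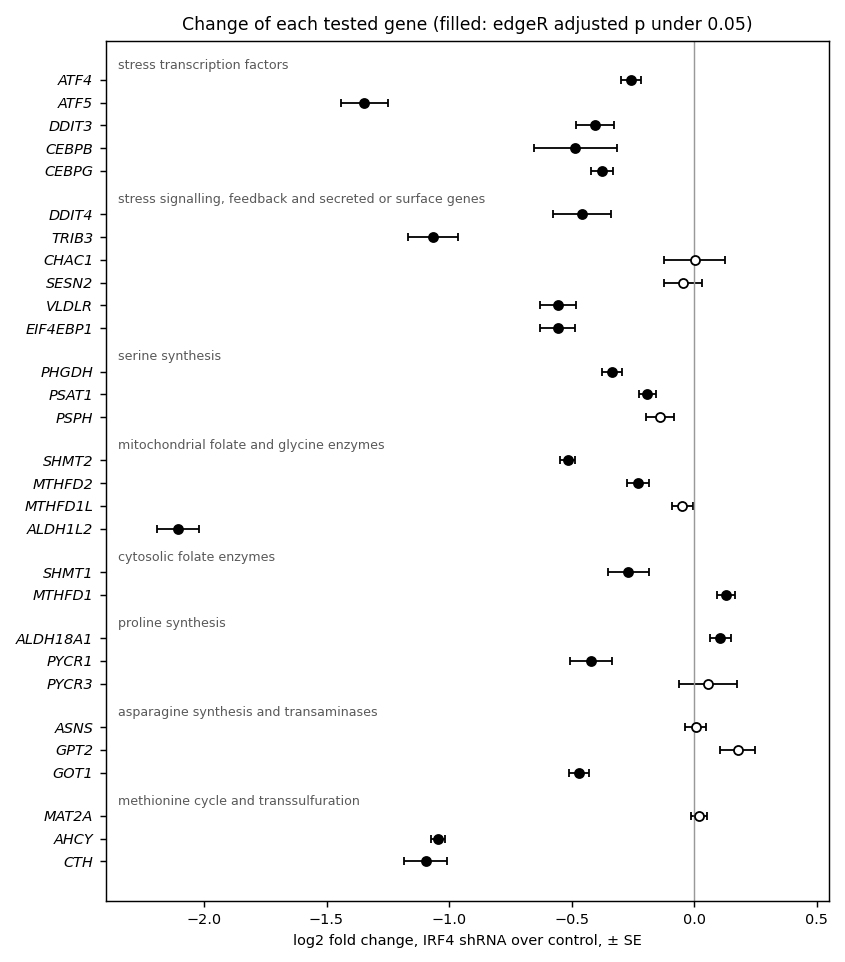
Log2 fold changes of IRF4 shRNA over control for the 29 tested genes, grouped by role, with filled points for called genes and bars of 1 SE from edgeR's fit over 6 libraries against 6. ALDH1L2 lies farthest to the left at -2.11, while ASNS, CHAC1 and MAT2A lie at 0 within their SE.

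The stress factors and the enzymes were taken apart. Of the 13 stress factors and signalling genes 11 were tested, of which 9 fell and 0 rose, with a median log2 fold change of -0.46. Of the 20 enzymes 18 were tested, of which 10 fell and 2 rose, with a median of -0.21. Whether the stress genes and the enzymes differ in their shift was not tested.

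All 5 tested transcription factors fell. ATF4 (chr22:39519672-39522683, hg38) gave 438, 472 and 488 CPM in IRF4 shRNA libraries, against 526, 556 and 612 CPM in control libraries as lowest, median and highest value, without overlap between the groups (log2 fold change -0.26, SE 0.041, edgeR adjusted p = 0.000113). ATF5 (chr19:49928702-49933935), a relative of ATF4 that is likewise translated when eIF2 alpha is phosphorylated and that drives mitochondrial chaperones and proteases, showed the widest change of the 5. Its levels were 1750.2, 2029 and 2207 CPM in IRF4 shRNA libraries, against 3991, 5095 and 6205 CPM in control libraries, so the groups lay far apart (log2 fold change -1.35, SE 0.10, edgeR adjusted p = 2.02e-08). No IRF4 shRNA library reached the lowest control. ATF5 overlaps the opposite-strand genes NUP62 and IL4I1, both of which were higher (1.26 and 1.99 log2) at 8365 and 317 counts per library, against 120991 for ATF5.

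CEBPG (chr19:33373685-33382686), a dimer partner of ATF4, was at 109.8, 116 and 123 CPM in IRF4 shRNA libraries, against 138, 152 and 161 CPM in control libraries, again without overlap (log2 fold change -0.38, SE 0.044, edgeR adjusted p = 4.54e-06). DDIT3, which encodes the stress factor CHOP, was present at 18.5, 19.7 and 22.9 CPM in IRF4 shRNA libraries, against 21.2, 27.5 and 29.8 CPM in control libraries, and the groups overlapped (log2 fold change -0.41, SE 0.078, edgeR adjusted p = 0.000545). DDIT3 overlaps the opposite-strand MARS1, which had 12696 counts per library against 801 for DDIT3 and was not called. CEBPB, a basic leucine zipper factor that pairs with ATF4, ranged over 10.1, 12 and 14.4 CPM in IRF4 shRNA libraries, against 11.3, 16 and 24.8 CPM in control libraries, and here too the groups overlapped (log2 fold change -0.48, SE 0.17, edgeR adjusted p = 0.0273). The CEBPB call was lost when control replicate 5 or 6, or IRF4 shRNA replicate 2, 4, 5 or 6, was left out, with log2 fold changes of -0.47 to -0.34 and adjusted p of 0.0533 to 0.0722. Without both control replicates 5 and 6 it was at -0.21 log2 (edgeR adjusted p = 0.161). The opposite-strand gene CEBPB-AS1, at -1.29 log2, overlaps CEBPB, and whether the counting used strand is not stated in the sources used here. The sixth factor, the small chromatin protein gene NUPR1, had 13 counts over the 6 IRF4 shRNA libraries and 16 over the 6 control libraries and was not tested.

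**Figure D2:**
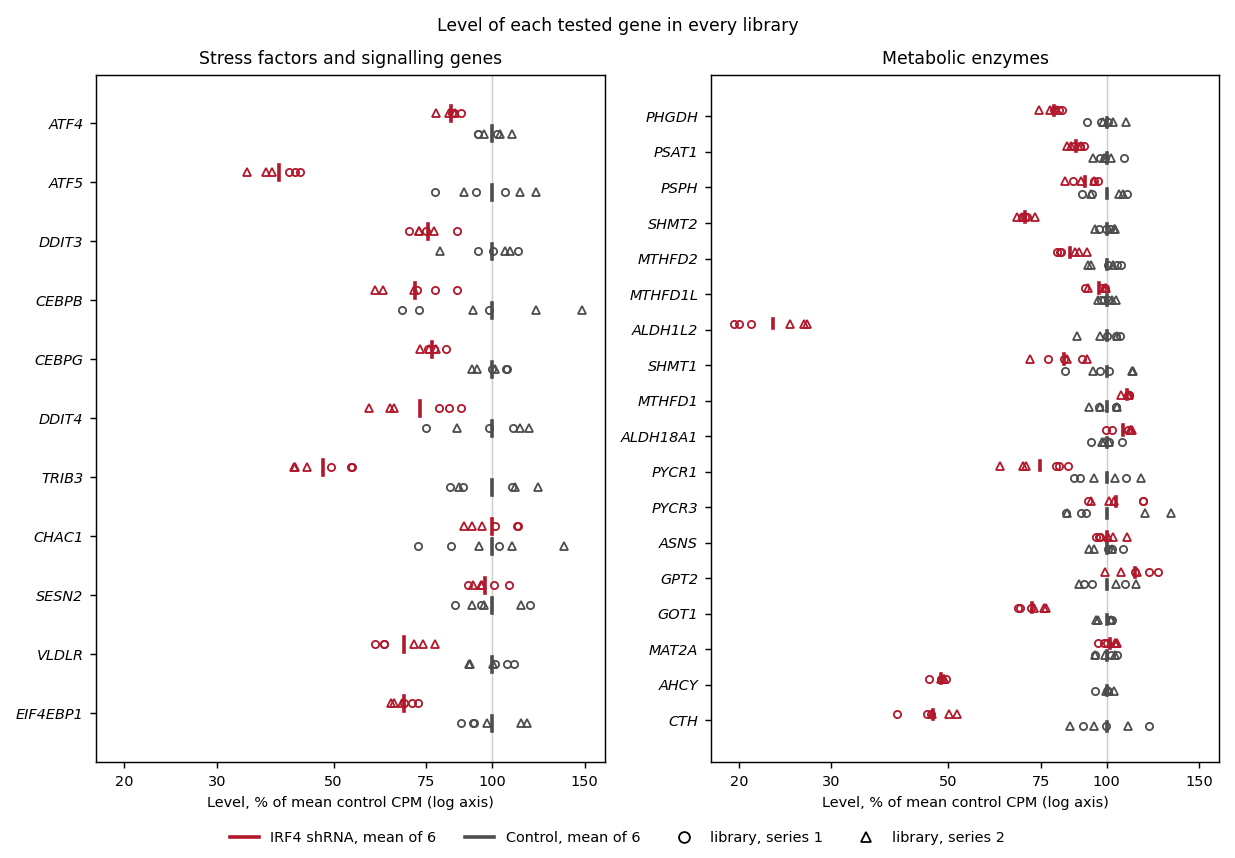
Level of each of the 29 tested genes in each of the 12 libraries, as percent of the mean control CPM on a log axis, with the 6 IRF4 shRNA libraries (red) above the 6 control libraries (grey), circles for library series 1, triangles for series 2 and bars for the group means. The groups stand apart for ALDH1L2, ATF5 and AHCY and intermix for ASNS and CHAC1.

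Among the signalling and surface genes, 4 of the 6 tested fell and 0 rose. TRIB3 (chr20:362835-397559), a pseudokinase induced by ATF4 and CHOP that feeds back on ATF4, was at 35.6, 39.8 and 45.9 CPM in IRF4 shRNA libraries, against 70.5, 83.6 and 103 CPM in control libraries (log2 fold change -1.07, SE 0.10, edgeR adjusted p = 5.83e-07). VLDLR, a lipoprotein receptor, was at 32.2, 35.9 and 41.8 CPM in IRF4 shRNA libraries, against 48.5, 54.2 and 59.1 CPM in control libraries (log2 fold change -0.56, SE 0.072, edgeR adjusted p = 1.42e-05). EIF4EBP1, which holds back cap-dependent translation by binding eIF4E, was at 27.7, 29.2 and 31.1 CPM in IRF4 shRNA libraries, against 37.6, 41 and 50.05 CPM in control libraries (log2 fold change -0.56, SE 0.070, edgeR adjusted p = 9.94e-06). In each of these 3 genes the IRF4 shRNA libraries lay below every control library.

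DDIT4, an inhibitor of mTORC1 signalling, was at 69.9, 86.3 and 105 CPM in IRF4 shRNA libraries, against 89.7, 125 and 140.4 CPM in control libraries, and the groups overlapped (log2 fold change -0.46, SE 0.12, edgeR adjusted p = 0.00536). CHAC1, which degrades glutathione, did not pass the test, at 27.6, 30.7 and 35 CPM in IRF4 shRNA libraries, against 22.5, 30.8 and 42.7 CPM in control libraries (log2 fold change 0.0019, SE 0.12, edgeR adjusted p = 0.992), and the IRF4 shRNA values lay within the control range. SESN2, a leucine sensor upstream of mTORC1, averaged 26.3 ± 1.76 CPM in IRF4 shRNA libraries and 27.2 ± 3.52 CPM in control libraries (log2 fold change -0.046, edgeR adjusted p = 0.66). The secreted glycoprotein gene STC2 had 3 counts over the IRF4 shRNA libraries and 5 over the control libraries and was not tested. VLDLR overlaps the opposite-strand VLDLR-AS1.

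Of the 3 enzymes that make serine from a glycolytic intermediate, 2 fell and 0 rose. PHGDH (chr1:119648411-119744218), which takes the first step, was at 221, 238 and 245 CPM in IRF4 shRNA libraries, against 272, 296 and 324 CPM in control libraries (log2 fold change -0.33, SE 0.041, edgeR adjusted p = 7.32e-06). PSAT1 (chr9:78297125-78330093), the transaminase of the second step, was at 250.4, 261 and 269.6 CPM in IRF4 shRNA libraries, against 281, 295 and 321 CPM in control libraries (log2 fold change -0.19, SE 0.035, edgeR adjusted p = 0.000332). In neither gene did the groups overlap. PSPH, the phosphatase of the last step, averaged 38.6 ± 2.23 CPM in IRF4 shRNA libraries and 42.5 ± 3.60 CPM in control libraries and did not pass the test (log2 fold change -0.14, edgeR adjusted p = 0.0629). It passed when control replicate 2, 3 or 5 was left out, with log2 fold changes of -0.17 to -0.16 and adjusted p of 0.0262 to 0.0474.

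Of the mitochondrial folate and glycine enzymes 3 of 4 tested fell and 0 rose. ALDH1L2 (chr12:105019784-105107643), which oxidises the formyl group of mitochondrial folate to carbon dioxide and makes NADPH, was at 33.3, 39.2 and 45.9 CPM in IRF4 shRNA libraries, against 149, 174 and 179.9 CPM in control libraries, so IRF4 shRNA libraries held 23.2% of the control mean (log2 fold change -2.11, SE 0.085, edgeR adjusted p = 3.57e-11). Its highest IRF4 shRNA library was below its lowest control library by more than the whole range of either group. C12orf45 overlaps ALDH1L2 on the opposite strand over 54414 bases of gene span and was lower as well (-0.86 log2), at 1273 counts per library against 3524 for ALDH1L2, and the share of reads common to both was not tested.

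SHMT2 (chr12:57229573-57234935), which splits serine into glycine and a one-carbon unit in mitochondria, was at 289.5, 298 and 313 CPM in IRF4 shRNA libraries, against 406, 431 and 443 CPM in control libraries (log2 fold change -0.52, SE 0.031, edgeR adjusted p = 3.41e-09). MTHFD2 (chr2:74198610-74217565), the dehydrogenase and cyclohydrolase that follows it, was at 341, 358 and 389.7 CPM in IRF4 shRNA libraries, against 390.1, 431 and 452 CPM in control libraries (log2 fold change -0.23, SE 0.046, edgeR adjusted p = 0.000709). SHMT2 was separated by a wide gap, whereas the highest MTHFD2 value with IRF4 shRNA lay just below the lowest control. SLC4A5, which overlaps MTHFD2 on the opposite strand, was lower by more (-2.70 log2) at 409 counts per library against 13492 for MTHFD2. MTHFD1L, which releases formate to the cytosol, averaged 22.1 ± 0.885 CPM in IRF4 shRNA libraries and 22.9 ± 0.682 CPM in control libraries and did not pass the test (log2 fold change -0.049, edgeR adjusted p = 0.365).

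GLDC, the decarboxylating subunit of the glycine cleavage system, was low in every library, with more counts in the IRF4 shRNA libraries. It had 8, 18, 16, 5, 11 and 17 counts in IRF4 shRNA replicates 1 to 6, against 1, 0, 0, 0, 3 and 1 counts in control replicates 1 to 6. All 6 IRF4 shRNA libraries were above the highest control. GLDC missed the filter on low counts and so was not tested with the other genes, and in the fit without a filter it was called higher (edgeR adjusted p = 0.000138).

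In the cytosolic branch 1 gene rose and 1 fell. MTHFD1, the trifunctional cytosolic folate enzyme, rose, at 101, 105 and 105 CPM in IRF4 shRNA libraries, against 88.2, 96 and 99.8 CPM in control libraries (log2 fold change 0.13, SE 0.036, edgeR adjusted p = 0.00782), with every IRF4 shRNA library above every control. SHMT1, the cytosolic counterpart of SHMT2, fell, averaging 9.21 ± 0.845 CPM in IRF4 shRNA libraries and 11.1 ± 1.23 CPM in control libraries (log2 fold change -0.27, SE 0.084, edgeR adjusted p = 0.0159). SHMT1 was the lowest of the tested genes per length of exon, and its call was lost with library sizes unscaled (-0.19 log2, adjusted p = 0.0723). SMCR8 overlaps SHMT1 on the opposite strand over 197 bases, at 4093 counts per library against 348 for SHMT1, and was not called.

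Of the 3 proline enzymes 1 fell and 1 rose. PYCR1 (chr17:81932384-81942412), the mitochondrial reductase of the last step, was at 23, 27.7 and 31 CPM in IRF4 shRNA libraries, against 31.9, 36.5 and 42.7 CPM in control libraries and fell without overlap (log2 fold change -0.42, SE 0.086, edgeR adjusted p = 0.000864). MYADML2 overlaps PYCR1 on the same strand over 2768 bases of gene span, at 269 counts per library against 1098 for PYCR1. MYADML2 was at -0.34 log2 and not called (edgeR adjusted p = 0.0582), and how reads common to both were counted was not tested. ALDH18A1, which takes glutamate through the first steps, rose by 0.11 log2, averaging 69.4 ± 3.33 CPM in IRF4 shRNA libraries and 64.5 ± 2.84 CPM in control libraries (SE 0.042, edgeR adjusted p = 0.0476). The ALDH18A1 call was lost without control replicate 1, 3, 4, 5 or 6, at log2 fold changes of 0.087 to 0.11 and adjusted p of 0.0651 to 0.11. PYCR3, the cytosolic reductase, averaged 10.3 ± 1.10 CPM in IRF4 shRNA libraries and 9.90 ± 2.04 CPM in control libraries and was not called (log2 fold change 0.057, edgeR adjusted p = 0.722).

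ASNS (chr7:97851677-97872542), the asparagine synthetase and one of the best known ATF4 targets, did not pass the test, at 117, 121 and 134 CPM in IRF4 shRNA libraries, against 114, 125 and 132 CPM in control libraries (log2 fold change 0.0060, SE 0.044, edgeR adjusted p = 0.924), and its groups overlapped over most of their range. ASNS lies on the same strand within the longer lncRNA AC079781.5, which had 561 counts per library against 4241 for ASNS. GOT1 (chr10:99396870-99430624), the cytosolic aspartate transaminase, fell, at 45.5, 48.5 and 51.6 CPM in IRF4 shRNA libraries, against 64.1, 68.2 and 68.7 CPM in control libraries (log2 fold change -0.47, SE 0.041, edgeR adjusted p = 1.89e-07). GPT2, the mitochondrial alanine transaminase, averaged 53.4 ± 4.41 CPM in IRF4 shRNA libraries and 47.2 ± 4.91 CPM in control libraries and was not called (log2 fold change 0.18, edgeR adjusted p = 0.0524). GPT2 was called higher in 10 of 22 alternatives, among them when control replicate 1 or 6, or IRF4 shRNA replicate 4 or 6, was left out, at log2 fold changes of 0.20 to 0.23 and adjusted p of 0.0159 to 0.0411.

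In the methionine cycle and transsulfuration, 2 of the 3 tested genes fell. AHCY (chr20:34280268-34311802), which clears S-adenosylhomocysteine, the product of methylation reactions, was at 141, 149 and 152 CPM in IRF4 shRNA libraries, against 291, 307 and 317 CPM in control libraries (log2 fold change -1.04, SE 0.030, edgeR adjusted p = 8.03e-13). CTH (chr1:70411218-70439851), which makes cysteine from cystathionine, was at 10.4, 12.1 and 13.5 CPM in IRF4 shRNA libraries, against 22.1, 25.2 and 31.2 CPM in control libraries (log2 fold change -1.10, SE 0.086, edgeR adjusted p = 6.58e-08). In both genes the highest IRF4 shRNA library was well below the lowest control. MAT2A, which makes S-adenosylmethionine, averaged 502 ± 16.6 CPM in IRF4 shRNA libraries and 495 ± 20.8 CPM in control libraries and was not called (log2 fold change 0.020, edgeR adjusted p = 0.667). CBS, which makes the cystathionine that CTH splits, had 3 counts over the IRF4 shRNA libraries and 2 over the control libraries, at most 2 in any library, and was not tested. Its named copy CBSL had 0.17 counts per library, and how reads common to both were counted was not tested.

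The genes differed widely in level, which can be compared between genes only per length of exon. ATF5 was the highest at 681 CPM per kb in IRF4 shRNA libraries and 1732 CPM per kb in control libraries, followed by ATF4 at 186 CPM per kb in IRF4 shRNA libraries and 223 CPM per kb in control libraries and PSAT1 at 119 CPM per kb in IRF4 shRNA libraries and 136 CPM per kb in control libraries. SHMT2, at 61.8 CPM per kb in IRF4 shRNA libraries and 88.4 CPM per kb in control libraries, was far above its cytosolic counterpart SHMT1, at 1.27 CPM per kb in IRF4 shRNA libraries and 1.52 CPM per kb in control libraries. ALDH1L2, at 4.64 CPM per kb in IRF4 shRNA libraries and 19.98 CPM per kb in control libraries, stood well below SHMT2 and below MTHFD2, at 74.2 CPM per kb in IRF4 shRNA libraries and 87 CPM per kb in control libraries, in either group. These are levels over the annotated exons and carry no test between genes.

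**Figure D3:**
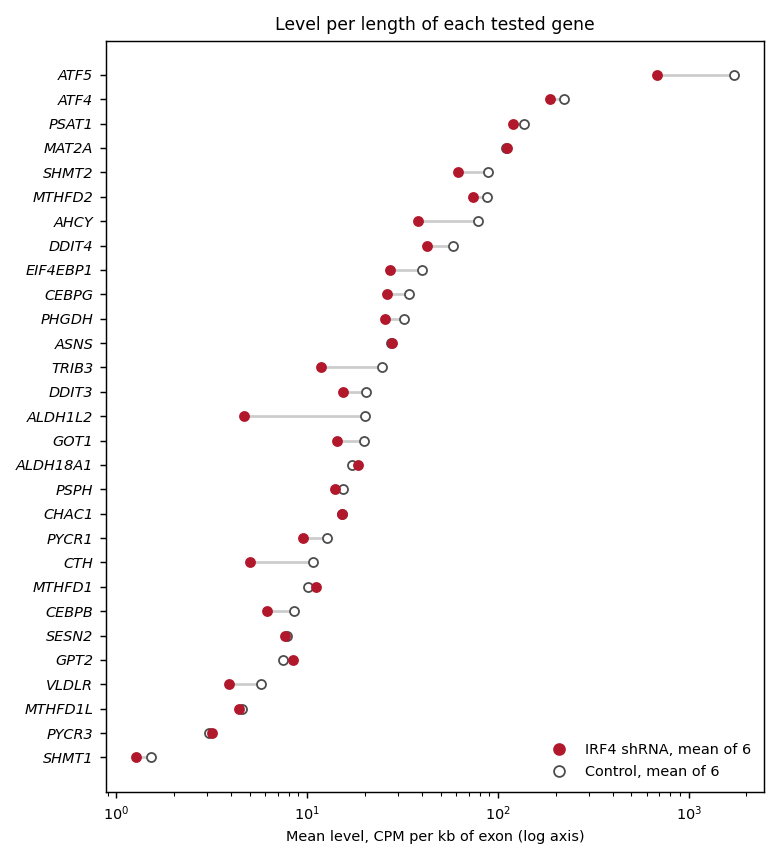
Mean CPM per kb of exon on a log axis for the 29 tested genes, with filled points for the mean of 6 IRF4 shRNA libraries, open points for the mean of 6 control libraries and no error drawn. ATF5 and ATF4 lie at the top and SHMT1 at the bottom.

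The promoters bear on whether the genes that moved share a written ATF4 element. RefSeq promoter windows (GRCh38.p14, 250 bases before to 50 after the gene's start) were found for 25 of the 33 genes. The genes without a window were not searched. The letters TGATGNAAN, the core of the C/EBP-ATF composite element, were searched on both strands, as were TGACGT, a cyclic AMP element core that ATF factors also bind. TGATGNAAN stood in the windows of 5 of the 25 genes and of 4.45% of the 27305 genes with windows, and TGACGT in those of 2 of the 25 genes (ALDH18A1 and CTH) and of 9.64% of all. A gene can have several windows, with 41 for the 25 genes and 35097 for all. Counted by window, TGATGNAAN stood in 7 of the 41 and in 3.61% of all windows, and TGACGT in 2 of the 41 and in 7.98%. The 5 sites are shown with 25 bases to either side, 5′ to 3′ along the gene's strand, with the element in capitals, since both genes that fell and genes that did not pass the test carry it.
CEBPG, chr19:33374046-33374104, plus strand: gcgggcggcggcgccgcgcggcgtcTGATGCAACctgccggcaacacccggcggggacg
GOT1, chr10:99430790-99430848, minus strand: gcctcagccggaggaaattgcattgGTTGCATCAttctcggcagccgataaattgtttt
ASNS, chr7:97872443-97872501, minus strand: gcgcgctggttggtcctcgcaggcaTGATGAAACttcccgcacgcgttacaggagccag
CHAC1, chr15:40953236-40953294, plus strand: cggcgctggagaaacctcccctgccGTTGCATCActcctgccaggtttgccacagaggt
MTHFD1L, chr6:150866332-150866390, plus strand: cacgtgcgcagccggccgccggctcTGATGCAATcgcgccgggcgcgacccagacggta
In CEBPG, ASNS and MTHFD1L the element reads forward along the gene, and in CHAC1 and GOT1 it lies on the reverse strand, so its capitals show the reverse complement. The MTHFD1L site is 1 position that 3 overlapping windows of that gene hold. CEBPG and GOT1 fell, while ASNS, CHAC1 and MTHFD1L were not called. A match is a stretch of letters and not a measured site, and a window without one says only that these letters are not in it.

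The libraries came in series 1 and series 2 by a number in their names, 3 libraries per group in each, and what the number stands for is not stated in the sources used here. IRF4 was lower in both series (-1.53 in series 1 and -1.05 in series 2). In series 1, 17 of the 29 tested genes fell and 4 rose, beside 24.6% and 25.8% of all genes, with a median of -0.20. In series 2, 18 fell and 2 rose, beside 17.9% and 20.2% of all genes, with a median of -0.33. Of the 29 genes 15 fell in both series and 1 rose in both. The share of all genes called in both series was not counted, so these 2 counts have no background beside them.

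**Figure D4:**
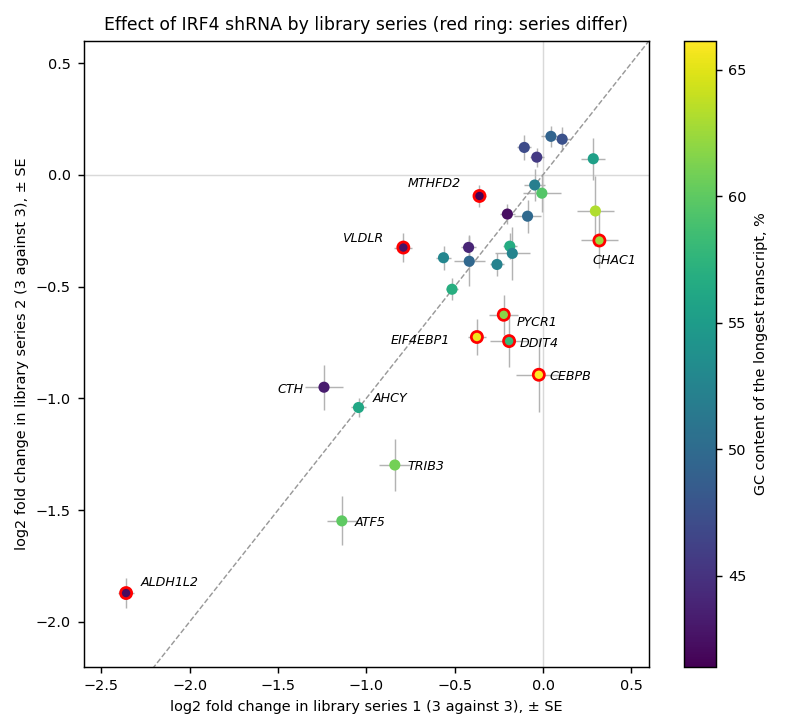
Log2 fold changes of IRF4 shRNA over control in library series 1 (horizontal axis) and series 2 (vertical axis) for the 29 tested genes, 3 libraries against 3 in each, with bars of 1 SE, colour for the GC content of the longest transcript (percent), red rings for genes whose effect differed between series and a dashed line of equal change. ALDH1L2, ATF5, AHCY, CTH and TRIB3 lie low on both axes, and CEBPB, CHAC1 and DDIT4 lie below the line of equal change.

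The effect differed between series in 8 of the 29 genes by the interaction test. It was more negative in series 2 in 5 genes (8.97% of all genes) and more positive in 3 (5.07% of all genes). CEBPB showed the widest difference, with -0.024 in series 1 and -0.89 in series 2 (interaction -0.89 log2, SE 0.23, edgeR adjusted p = 0.0248). CHAC1 had values of opposite sign, with 0.32 in series 1 and -0.29 in series 2 (interaction -0.63 log2, SE 0.18, edgeR adjusted p = 0.0364). DDIT4 gave -0.19 in series 1 and -0.74 in series 2 (interaction -0.57 log2, SE 0.18, edgeR adjusted p = 0.0472), PYCR1 gave -0.22 in series 1 and -0.63 in series 2 (interaction -0.42 log2, SE 0.13, edgeR adjusted p = 0.0446), and EIF4EBP1 gave -0.37 in series 1 and -0.73 in series 2 (interaction -0.37 log2, SE 0.091, edgeR adjusted p = 0.0201).

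The effect was less negative in series 2 for ALDH1L2, with -2.36 in series 1 and -1.87 in series 2 (interaction 0.47 log2, SE 0.087, edgeR adjusted p = 0.00898). The same held for VLDLR, with -0.79 in series 1 and -0.33 in series 2 (interaction 0.45 log2, SE 0.081, edgeR adjusted p = 0.00836), and for MTHFD2, with -0.36 in series 1 and -0.095 in series 2 (interaction 0.25 log2, SE 0.064, edgeR adjusted p = 0.0241). ALDH1L2 and VLDLR were called in each of the 15 alternatives of the interaction test, whereas the count of 8 ranged from 2 to 14 genes as single libraries were left out, and 14 was reached without control replicate 4.

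The libraries also differed in how their values moved with the GC content of transcripts, and in the IRF4 shRNA group the difference ran with the series. In each library, the Spearman correlation across genes between GC and the gene's difference from its mean in the group was 0.24 to 0.31 in the IRF4 shRNA libraries of series 1 and -0.33 to -0.19 in those of series 2, over 15832 genes. It was between -0.50 and -0.05 in control replicates 1 to 3, which are series 1. Of the series 2 controls, replicate 4 was at -0.35, near series 1, and replicates 5 and 6 were at 0.42 and 0.60. Across the 29 genes, the difference in effect between series had a Spearman correlation of -0.87 with GC, against -0.54 across 15832 genes. These points share the same 12 libraries. All 5 genes with a more negative effect in series 2 had a GC content of at least 55%, and all 3 with a more positive one had less. The 55% split was chosen after the values were seen.

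With the GC trend removed from each library, 3 of the 29 genes had an interaction instead of 8. ALDH1L2 (0.37 log2 with edgeR adjusted p = 0.00595), VLDLR (0.35 log2 with edgeR adjusted p = 0.00735) and GOT1 (0.23 log2 with edgeR adjusted p = 0.0372) were called then. CEBPB (0.0039 log2 with edgeR adjusted p = 0.99), CHAC1 (-0.075 log2 with edgeR adjusted p = 0.73), DDIT4 (-0.34 log2 with edgeR adjusted p = 0.105) and PYCR1 (0.056 log2 with edgeR adjusted p = 0.766) were not. MTHFD2 (0.13 log2 with edgeR adjusted p = 0.119) and EIF4EBP1 (0.46 log2 with edgeR adjusted p = 0.065) were not called either, and the EIF4EBP1 difference changed sign.

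**Figure D5:**
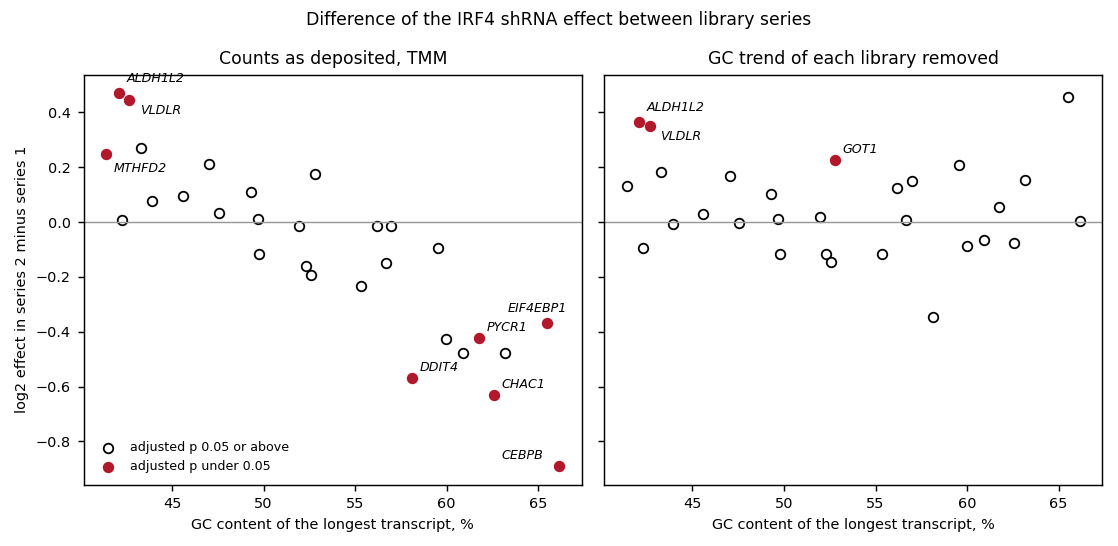
Effect in series 2 minus series 1 (log2) against the GC content of the transcript (percent) for the 29 tested genes, as fitted (left) and with the GC trend removed (right), with filled points for genes called in the interaction test. As fitted, the genes slope downward with GC, and with the trend removed ALDH1L2, VLDLR and GOT1 are the called genes.

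The overall effect did not run with GC in the same way. Its Spearman correlation with GC was -0.11 across the 29 genes. Of the 13 genes with at least 55% GC 9 fell and 0 rose, with a median log2 fold change of -0.46, or -0.48 with the trend removed. Of the 16 with less, 10 fell and 2 rose, with a median of -0.25, or -0.23 with the trend removed. The shares of all genes called on either side of 55% GC were not counted. With the GC trend removed 19 genes fell and 3 rose, against 19 and 2 as fitted. Over all genes 4261 fell and 4667 rose with the trend removed, against 3935 and 3983 as fitted.

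Several other lists bear on the same pathways, and their genes were counted the same way, to be read beside the 23.9% lower and 24.2% higher of all genes tested. Of the eIF2 alpha kinases, phosphatase subunits and eIF2B subunits 13 were tested, of which 5 fell and 3 rose, the rises near the share over all genes, with a median of -0.059. EIF2AK2, the interferon-induced kinase PKR, rose by 2.30 log2 (329 ± 17.2 CPM in IRF4 shRNA libraries and 66.8 ± 7.02 CPM in control libraries, SD, n = 6 each). The kinases EIF2AK3 (PERK) and EIF2AK4 (GCN2), named after their values were seen, fell by 0.35 and 0.36 log2. The phosphatase subunit PPP1R15A, which ATF4 induces, fell by 0.42 log2, GCN1, the partner of the kinase GCN2, fell by 0.39, and PPP1R15B, the constitutive phosphatase subunit, rose by 0.37.

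Of the other ATF4 targets 11 were tested, of which 6 fell and 3 rose, the rises near the share over all genes, with a median of -0.20. GDF15, a secreted stress cytokine, is 1 of the 3 that rose and passed the filter on low counts only through the IRF4 shRNA libraries. It had 23, 25, 30, 12, 11 and 12 counts in IRF4 shRNA replicates 1 to 6, against 1, 3, 2, 1, 1 and 0 counts in control replicates 1 to 6, and no fold is given. LONP1, a mitochondrial protease, averaged 299.8 ± 22.5 CPM in IRF4 shRNA libraries and 446 ± 73 CPM in control libraries (log2 fold change -0.57, SE 0.091, edgeR adjusted p = 9.71e-05). ATF3 and JDP2, both basic leucine zipper factors, fell by 0.51 and 0.48 log2.

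All 7 amino acid transporter genes that were called fell, out of 9 tested, with a median of -0.46. SLC6A9, the glycine transporter GLYT1, averaged 8.31 ± 0.322 CPM in IRF4 shRNA libraries and 28.3 ± 2.91 CPM in control libraries (log2 fold change -1.77, SE 0.068, edgeR adjusted p = 1.92e-11). SLC43A1, a carrier of large neutral amino acids, fell by 0.61 log2. SLC7A5 and SLC3A2, the light and heavy chains of the LAT1 carrier, fell by 0.52 and 0.48 log2.

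Of the other folate genes 22 were tested, of which 8 fell and 5 rose, the rises near the share over all genes, with a median of -0.071. ALDH1L1, the cytosolic counterpart of ALDH1L2, averaged 4.08 ± 0.161 CPM in IRF4 shRNA libraries and 9.15 ± 1.02 CPM in control libraries (log2 fold change -1.17, SE 0.080, edgeR adjusted p = 1.33e-08). TYMS, which makes thymidylate with a folate carbon, rose by 0.82 log2, and MTHFD2L, a mitochondrial relative of MTHFD2, fell by 0.35. Of the other methionine cycle genes 6 were tested, of which AHCYL1 fell by 0.24 log2 and MAT2B, the regulatory subunit that binds MAT2A, rose by 0.33.

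Of the other proline, glutamate and aspartate genes 8 were tested, of which 5 fell and 0 rose, with a median of -0.12. ASS1, which joins citrulline and aspartate in arginine synthesis, averaged 4.10 ± 0.463 CPM in IRF4 shRNA libraries and 16.1 ± 1.05 CPM in control libraries (log2 fold change -1.97, SE 0.079, edgeR adjusted p = 3.23e-11). GOT2, the mitochondrial counterpart of GOT1, fell by 0.55 log2, ALDH4A1, which degrades proline, fell by 0.38, and GLUL, the glutamine synthetase, fell by 0.16.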

How the data were processed

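The authors deposited a table of estimated (expected) counts per gene for 26318 genes in 12 libraries, not normalized, and 66.6% of its values were whole at a tolerance of 1e-06. STAR, HTSeq and hg38 were used per the submitters' processing notes, and poly(A) RNA went into a TruSeq stranded kit with paired-end sequencing per the labels' protocols. The step that gave fractional counts, the annotation release and the use of strand in counting are not stated in the sources used here. Reads may thus have been shared out among near-identical copies. ATF4P3 and ATF4P4 had 69.5 and 136 counts per library, against 17637 for ATF4.

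Estimated counts as deposited were rounded and tested with edgeR 4.0.16 in R 4.3.3 (quasi-likelihood fit, TMM scaling, filterByExpr with a minimum count of 10), with Benjamini-Hochberg adjustment over all 16437 genes tested and a threshold of 0.05. The comparison was fitted over all 12 libraries, within each library series, and with an interaction of series and group (series 2 minus series 1). SE is the log2 fold change over the root of the F statistic. A value of 3 counts in a library corresponds to 0.0786 to 0.0959 CPM. Standard deviations are over the 6 libraries of a group. The edgeR step was tested on simulated data.

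The GC trend was removed in an alternative by lowess (span 0.3) on the GC content of each gene's longest GENCODE 29 transcript. In each library the lowess was fitted to the gene's log2 CPM (prior count 2) less its mean over all 12 libraries. Other alternatives were DESeq2 1.42.0, other scalings, no filter, blocks, sums and leaving out libraries. Between libraries of the same group and series, chi-square over its degrees of freedom was 2.73 to 31.9, so none was treated as a duplicate. Same-numbered libraries had correlations of deviations from -0.26 to 0.13, so the replicate numbers were taken not to pair the samples.

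The genes and lists were chosen with earlier results of these data known. Values by library are given for the main ATF4, serine and folate genes, for genes called with an absolute log2 fold change of at least 0.5, and for genes with an interaction. From each other list, up to 4 called genes with the largest fold change are named, apart from an item that is not reported here.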

Additional observations from a re-analysis of the deposited data

Results flagged for a closer look

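A single library stood apart in 2 of the 60 groups of 6 values examined over the tested genes, each by the gap to its neighbour as a share of the group's range, and chance gives about 1 in 20. MTHFD1 in IRF4 shRNA replicate 4 was at 101 CPM, against 104 to 105 CPM in the other IRF4 shRNA libraries, a share of 0.852. AHCY in IRF4 shRNA replicate 3 was at 141 CPM, against 148 to 152 CPM in the others, a share of 0.682.

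The IRF4 shRNA effect differed between the library series in 8 genes by the interaction test. In log2, series 2 minus series 1, the difference was -0.89 for CEBPB, -0.63 for CHAC1, -0.57 for DDIT4, -0.42 for PYCR1 and -0.37 for EIF4EBP1. It was 0.47 for ALDH1L2, 0.45 for VLDLR and 0.25 for MTHFD2. GC-related deviations moved with the series among the IRF4 shRNA libraries, while control replicate 4 of series 2 lay near the series 1 controls. Of the 8 genes ALDH1L2 and VLDLR were still called with the GC trend removed.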

How the results depend on the processing

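Of the 29 tested genes 13 gave the same call in all 22 alternatives, each of them lower: ATF4, ATF5, DDIT3, CEBPG, TRIB3, VLDLR, EIF4EBP1, PHGDH, SHMT2, ALDH1L2, GOT1, AHCY and CTH. With counts summed per group and series, which leaves 2 sums against 2, 4242 genes changed, 1932 fell and 2310 rose. Among all 20 enzymes 6 fell and 1 rose then, and 1 of all 33 genes rose. Such counts can include GLDC, which is not among the 29 tested genes. CEBPB was not called in 11 and ALDH18A1 in 10 of the 22, GPT2 was called higher in 10, among them with library sizes unscaled, the DESeq2 Wald test, no filter, the block by library name, the GC trend removed and without control replicates 5 and 6, and the calls of DDIT4, PSAT1, MTHFD2, MTHFD1, PYCR1 and SHMT1 were lost with the sums. Counted over all 33 genes, 1 rose with DESeq2 size factors and 1 with the replicate block. Rises numbered 4 with library sizes unscaled, 4 without the filter and 4 without control replicates 5 and 6. The enzymes gave the same numbers. Without the filter the 4 include GLDC (edgeR adjusted p = 0.000138), which the main fit did not test. In series 2, 1 gene rose with DESeq2 size factors and 4 with library sizes unscaled. Unscaled sizes moved the median log2 fold change of all genes to 0.068, of the 29 genes to -0.26 and of the enzymes to -0.14.

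Leaving out one library at a time, 18 to 20 of the 29 genes fell and 1 to 3 rose, likewise 1 to 3 enzymes. Over all genes 3515 to 4078 fell and 3842 to 4131 rose in the same fits. Counted over all 33 genes, 15 to 17 fell and 2 to 4 rose in series 1. In series 2, 15 to 20 fell and 0 to 4 rose. The ranges over all genes were not counted within a series. Genes with an interaction numbered 3 with the GC trend removed. Without single libraries they numbered 2 to 14, at 2 without control replicate 5 or IRF4 shRNA replicate 1 or 6, at 3 without control replicate 2, 3 or 6 or IRF4 shRNA replicate 3 or 5, and at 4 without IRF4 shRNA replicate 2 or 4.

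Some genes near 0 changed sign. CHAC1 was at -0.039 with the GC trend removed and between -0.077 and 0.11 without single libraries. SESN2 was at 0.029 with library sizes unscaled and between -0.089 and 0.0064 without single libraries, and MTHFD1L at 0.025 unscaled. ASNS was at -0.042 without control replicates 5 and 6 and between -0.016 and 0.035 without single libraries, and MAT2A at -0.0018 without control replicates 5 and 6. The cause of these moves was not tested.

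The replicate numbers were taken not to pair the samples, which no label settles. With a replicate block 6942 genes changed, and of the 29 genes 18 fell and 1 rose. NUPR1, STC2, GLDC and CBS had too few counts to pass the filter of the main fit, and why was not tested.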
